A study of Mus musculus with 8 samples.

Results

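The comparison described here sets mouse bone marrow-derived macrophages exposed to LPS for 180 min against untreated macrophages of the same series. The assay was GRO-seq (global run-on sequencing of nascent RNA), in which isolated nuclei extend engaged RNA polymerases in the presence of BrUTP and the labelled RNA is captured with an antibody before sequencing. The values therefore follow transcription under way at the time of harvest more closely than the amount of stored mRNA. Both groups were primary macrophages differentiated from the marrow of male C57BL/6 mice aged 8 weeks, on an isogenic C57 background, plated in serum-free macrophage medium. The untreated group (0 min) received no LPS, and the treated group received LPS at 100 ng/ml for 180 min. Each group had 2 libraries, named replicates 1 and 2, which the labels call biological replicates; whether a replicate pooled mice is not given in the sources used here. These 4 of the 8 libraries carry the comparison, and those of 20 and 60 min of LPS add to the estimate of spread and give the closest earlier time. The genes described are the 8343 of 22753 listed genes whose FPKM (a fragment count divided by gene length and by library depth) averaged 0.5 or more over the 8 libraries. Smim11 and Rassf8, each with a mean of 0.500125 FPKM, were the last genes inside that limit, and Nes (0.499875 FPKM) and Pibf1 (0.49975 FPKM) the first outside it.

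LPS, a component of the outer membrane of Gram-negative bacteria, is sensed by Toll-like receptor 4 on macrophages. Through the adaptor MyD88 the receptor activates NF-kB and MAP kinases, which act on cytokine, chemokine and immediate early genes within minutes. Through the adaptor TRIF it activates the interferon regulatory factor IRF3, which induces interferon beta, and secreted interferon then acts back on the cells through JAK kinases and STAT proteins and IRF9 to induce antiviral genes. In the promoters of such genes NF-kB binds the kappaB site, and IRF and STAT complexes bind the interferon-stimulated response element.

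The promoters of 8 genes that the results below turn on are shown here because they carry these motifs. Each stretch lies within the 250 bases before the gene start that RefSeq gives on GRCm38.p6, is written 5′ to 3′ on the gene's strand, and has the matches in capitals. The interferon-stimulated response element was searched as GAAA, any 2 bases and GAAA, and the kappaB site by its usual consensus, both on either strand. By these searches the first 3 stretches hold the response element alone, those of Cxcl10 and Gbp5 hold both motifs, and the last 3 hold the kappaB site alone. The stretch of Ifnb1 also holds GAAA repeats at another spacing, which the search for the response element does not find. In Isg15 the capitals cover 3 overlapping matches.
Ifit1 (chr19:34640745-34640853, plus strand): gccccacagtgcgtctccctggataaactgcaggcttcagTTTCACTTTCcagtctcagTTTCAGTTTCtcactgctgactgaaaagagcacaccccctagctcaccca
Isg15 (chr4:156200831-156200940, minus strand): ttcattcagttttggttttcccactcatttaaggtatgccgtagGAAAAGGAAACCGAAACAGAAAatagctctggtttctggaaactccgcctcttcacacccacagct
Rsad2 (chr12:26456513-26456622, minus strand): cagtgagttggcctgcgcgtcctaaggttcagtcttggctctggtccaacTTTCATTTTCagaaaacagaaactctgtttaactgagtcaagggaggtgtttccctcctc
Cxcl10 (chr5:92348958-92349127, minus strand): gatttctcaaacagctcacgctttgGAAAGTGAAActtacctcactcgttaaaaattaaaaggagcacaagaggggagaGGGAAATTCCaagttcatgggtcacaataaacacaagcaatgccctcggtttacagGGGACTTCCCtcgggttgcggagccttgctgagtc
Gbp5 (chr3:142496744-142496891, plus strand): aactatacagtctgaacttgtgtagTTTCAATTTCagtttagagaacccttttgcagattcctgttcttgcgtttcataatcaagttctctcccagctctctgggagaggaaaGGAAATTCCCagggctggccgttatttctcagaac
Ifnb1 (chr4:88522851-88522960, minus strand): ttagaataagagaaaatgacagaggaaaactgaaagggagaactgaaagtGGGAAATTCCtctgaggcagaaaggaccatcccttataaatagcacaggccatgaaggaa
Il6 (chr5:30013020-30013113, plus strand): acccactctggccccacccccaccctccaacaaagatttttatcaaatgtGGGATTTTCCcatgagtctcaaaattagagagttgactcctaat
Nfkbia (chr12:55492648-55492729, minus strand): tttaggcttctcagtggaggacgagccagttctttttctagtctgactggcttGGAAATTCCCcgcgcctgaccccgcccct

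Depth differed between the replicates: replicate 1 held 44.4 to 61.2 M reads (M, mega) and replicate 2 held 7.96 to 11.1 M, as recovered from the steps of the deposited FPKM. The replicates also differed at every time. Vdr, the vitamin D receptor, stood at 0.678 and 39.96 FPKM in replicates 1 and 2 untreated and at 0.572 and 39.5 FPKM at 180 min. The nuclear noncoding RNA gene Malat1 stood at 83.8 and 1321 FPKM untreated and at 39.6 and 368 FPKM at 180 min. Tests were made with the replicate number as a block, so that each 180 min library was set against the untreated library of its own number. Unless another fit is named, a change is the difference in log2(FPKM + 0.1), 180 min minus untreated, with its SE from limma (n = 2 libraries a group), and p-values are limma's moderated test with Benjamini-Hochberg adjustment over 8343 genes. A gene is called, and said to have risen or fallen, at an adjusted p under 0.05.

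The libraries carried the markers of macrophages. The summed level of 12 macrophage markers was 152 and 124 FPKM untreated and 112 and 83.8 FPKM at 180 min. Among them Cd68 was at 35.1 and 23.2 FPKM untreated and 7.61 and 5.79 FPKM at 180 min, and Cd14, the LPS co-receptor, at 14.4 and 12.4 and then 43.5 and 24.9 FPKM. Markers of other cells were low: the 12 T and NK cell markers summed to 1.07 to 1.52 FPKM in the 4 libraries, the 8 B cell markers to 0.174 to 1.28 FPKM, the 8 erythroid markers to at most 0.145 FPKM and the 8 mast cell and basophil markers to at most 0.008 FPKM, with Gzma and Cma1 listed at 0 in all 4. The 9 neutrophil markers listed summed to 2.44 and 6.78 FPKM untreated and 5.14 and 8.05 FPKM at 180 min, and the 9 stromal and endothelial markers to 0.381 and 0.509 and then 1.78 and 1.32 FPKM. The 8 dendritic cell markers summed to 4.44 and 7.55 FPKM untreated and 28.7 and 29.9 FPKM at 180 min. Bst2, which is also an interferon-inducible antiviral gene, made up 3.78 and 6.91 and then 26.3 and 27.7 FPKM of that sum, and Ccr9 made up 0.262 and 0.262 and then 1.98 and 1.57 FPKM. These were the 2 tested members, and both were called higher, also after scaling and without the block. The dendritic cell factors Flt3 and Zbtb46 were at or under 0.032 FPKM in the 4 libraries. The part of such cells in the results was not tested. In such bulk libraries fewer cells of a type and less RNA per cell cannot be told apart.

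At 180 min 1184 genes were higher than untreated, 14.2% of those tested, and 4302 were lower, 51.6%. Without the block the calls were 745 higher (8.93%) and 1951 lower (23.4%), and each of these was also called with it. The changes were positive in both replicate pairs for 1184 of the 1184 higher genes and negative in both for 4302 of the 4302 lower genes. The calls were made from these same pairs, so this agreement was nearly bound to hold and gives no separate support. The 2 libraries of 180 min lay entirely above the 2 untreated ones in 1345 genes (16.1%) and entirely below in 4433 (53.1%). Leaving out untreated replicate 2 lowered the number of lower genes to 2416, while the number of higher genes ranged from 892 to 1181 over the 8 libraries left out in turn.

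FPKM gives each gene a share of its library's reads, and at 180 min those reads were held by fewer genes. The 100 genes with the most reads held 13.2% and 15.8% of gene reads in untreated replicates 1 and 2 and 21.9% and 25.4% at 180 min. It took 1244 and 1032 genes to reach 50% of gene reads untreated and 580 and 419 genes at 180 min. The median change over the 8343 genes was -0.69, at -0.51 in replicate 1 and -0.85 in replicate 2. Scaling the libraries to a common median ratio moved that median by 0.68, to -0.01, and the calls became 2176 higher (26.1%) and 2149 lower (25.8%). All 1184 higher genes were also higher after this scaling, whereas 2153 of the 4302 lower genes were no longer called. Because this scaling raised the changes, rises were nearly bound to stay called, here and in the lists below. Their survival is therefore no test of them, and only the falls were put to the test. A fall is therefore a fall in the share of reads, and for named genes a fall from untreated that was not called after scaling is given as such below. A measure of total RNA synthesis per cell is not given in the sources used here.

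**Figure D1:**
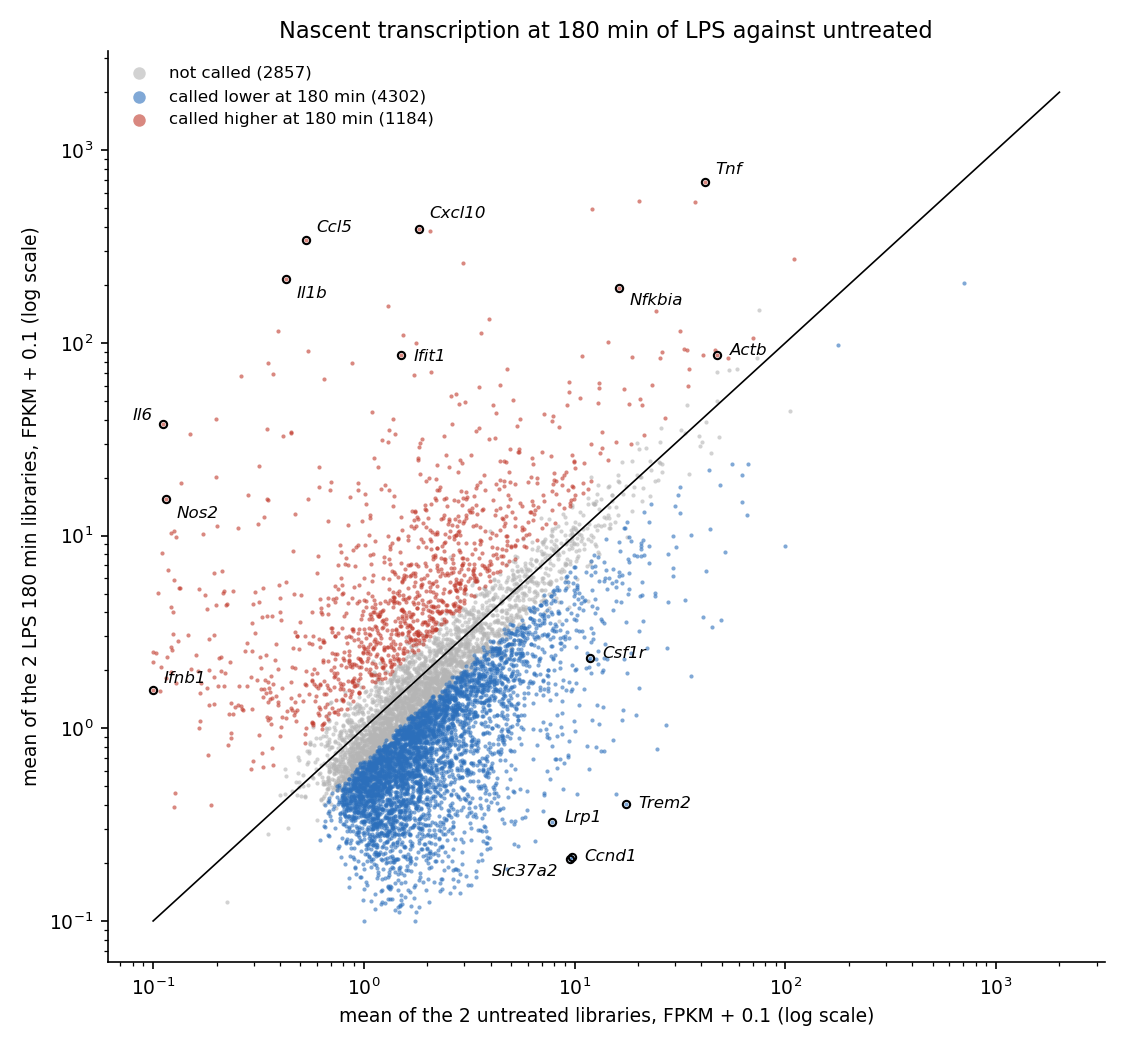
Mean FPKM + 0.1 of the 2 untreated libraries (x axis, log scale) against that of the 2 LPS 180 min libraries (y axis, log scale), 1 point for each of the 8343 tested genes, coloured by call. The line marks equal values; Ccl5, Il1b and Il6 lie far above it and Slc37a2, Ccnd1 and Trem2 far below, and the 4302 lower genes form a broad cloud under it.

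On the log scale used here the largest changes were rises. The offset added to FPKM caps a fall at a size set by the untreated level of the gene, and a rise has no such cap. The counts that follow therefore cannot decide whether rises reached further than falls. The change was over 1 in 899 higher genes, over 2 in 421, over 4 in 102 and over 6 in 28, whereas falls of more than 4 were seen in 43 genes and of more than 6 in 0. The median change was 1.57 among the higher genes and -1.30 among the lower ones. The 15 largest rises, among genes that averaged 2 FPKM or more in 1 group and whose libraries did not overlap, were those of Ccl5, Il1b, Il6, Ptgs2, Gbp5, Cxcl10, Il1a, Edn1, Irg1, Saa3, Cxcl3, Socs3, Nos2, Cxcl1 and Cd40. They comprise cytokines, chemokines, inflammatory enzymes, a guanylate-binding protein, a feedback inhibitor of cytokine signalling and a costimulatory receptor. Of the tested genes, 135 passed the limit of 0.5 FPKM only through the 180 min libraries, and 119 of these were called higher. Il6 and Nos2 were such genes, so their being high at 180 min was set by the limit. In the same way, a gene that passed only through the untreated libraries was bound to be high there. Such genes were not counted, and Cnr2 and Mdh1 below are among them. Of the 14410 listed genes left untested, 168 had a mean of at least 0.5 FPKM at 180 min and 1104 untreated.

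Ccl5, which encodes a chemokine for T cells and monocytes and lies at chr11:83339281-83344020 (mm9, minus strand), rose most. It stood at 0.359 and 0.506 FPKM in untreated replicates 1 and 2 and at 269 and 412 FPKM at 180 min, a change of 9.30 ± 0.23, adjusted p = 2.1e-07, or 788-fold between the means. Both 180 min libraries lay far above both untreated ones, and also above those of 60 min (56.4 and 119 FPKM). Il1b, the gene of the fever-inducing cytokine interleukin 1 beta, went from 0.422 and 0.233 to 261 and 166 FPKM, a change of 8.96 ± 0.36, adjusted p = 9.4e-07. An antisense gene overlaps Il1b, and strand handling is not given, so reads of the pair cannot be told apart. The same holds for Cxcl10, which overlaps Art3 and went from 0.494 and 2.96 to 193 and 590.2 FPKM (7.97 ± 0.31, adjusted p = 9.4e-07), and for Il1a, which overlaps Gm14023. Il6 was at 0.024 FPKM in untreated replicate 1, was listed at 0 in replicate 2 and reached 26.2 and 49.7 FPKM at 180 min (8.34 ± 0.37, adjusted p = 1.3e-06). It passed the limit on mean FPKM only through the 180 min libraries, so its call gives no separate support.

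**Figure D2:**
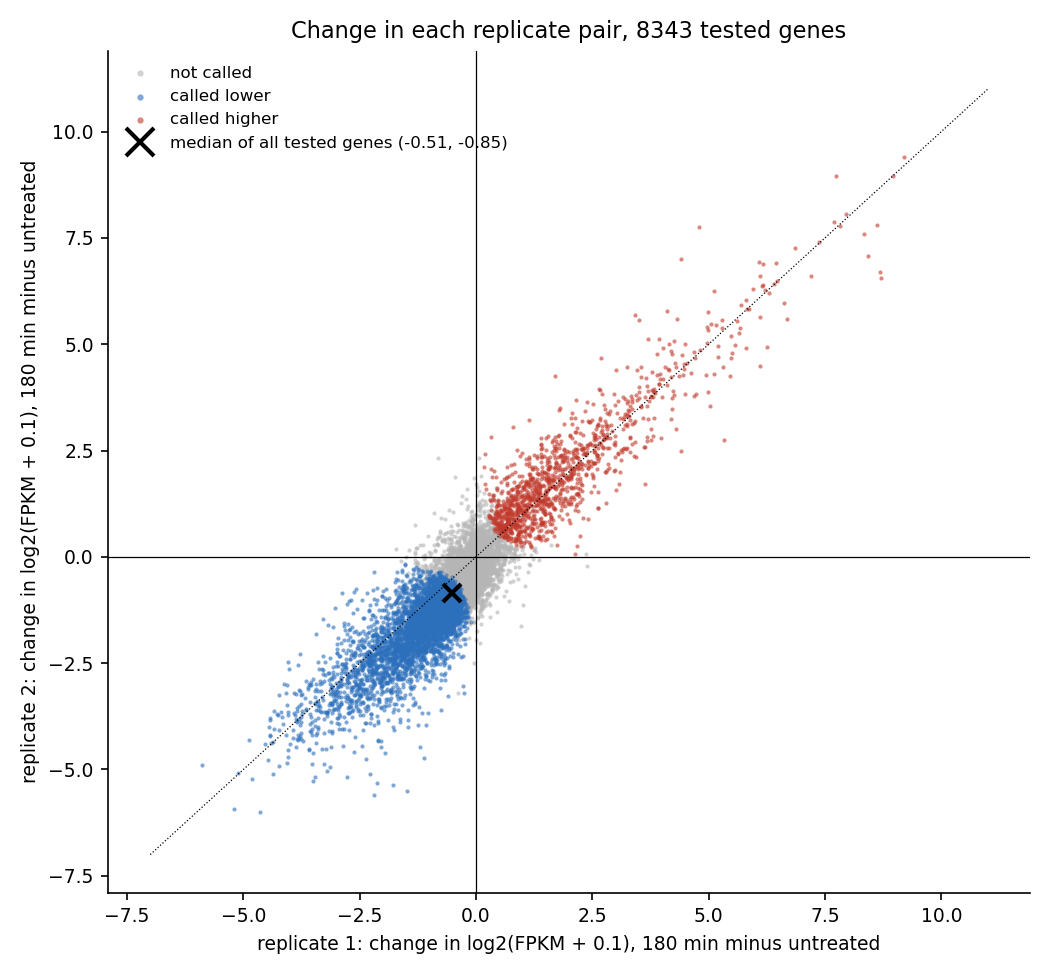
Change in log2(FPKM + 0.1) from untreated to 180 min in replicate 1 (x axis) and replicate 2 (y axis) for the 8343 tested genes, coloured by call, with the dotted line marking equal changes and the cross the median of all tested genes. Called genes lie on the same side of 0 in both replicates, as calls made from these pairs nearly must, and the median lies below 0 in both (-0.51 and -0.85).

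The 2 replicate pairs gave changes that ran together, with Pearson's r = 0.918 across 8343 genes, which are not independent replicates. For the gene lists below, higher and lower counts are followed by those after median-ratio scaling and without the block, and each list's share can be read against 14.2% higher and 51.6% lower over all tested genes. The matching shares are 26.1% and 25.8% after scaling and 8.93% and 23.4% without the block. A member that passed the limit on mean FPKM only through the 180 min libraries was bound to be high at that time, so the counts without such members are given where a list had more than 1. The lists were drawn up from general knowledge of the field with earlier results of these data known.

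Most NF-kB subunits, inhibitors and adaptors rose at 180 min. Of 24 tested members 19 were higher and 1 was lower (3 lower without 180 min replicate 1), with a median change of 1.88; the calls were 20 higher and 1 lower after scaling, and 16 and 1 without the block. Tnfaip3, which encodes the ubiquitin-editing inhibitor A20, went from 3.90 and 3.72 to 147.2 and 119 FPKM (5.08 ± 0.25, adjusted p = 2.4e-06). Nfkbia, the gene of the inhibitor IkB alpha that NF-kB itself induces, went from 17.3 and 14.9 to 191 and 192 FPKM (3.57 ± 0.23, adjusted p = 6.9e-06). Both stood well above the untreated libraries in each replicate and neither was called different from 60 min, where Nfkbia was at 199 and 235 FPKM. Traf1 changed by 4.08 ± 0.26 and Nfkbiz, a nuclear cofactor, by 3.35 ± 0.25. Nfkbid, a related nuclear cofactor, was at 8.84 and 11.9 FPKM untreated, 21.2 and 32.3 FPKM at 60 min, then 8.06 and 8.61 FPKM at 180 min, and was not called against untreated (-0.30 ± 0.26, adjusted p = 0.327; 0.44 after median-ratio scaling).

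Genes of Toll-like receptors and their signalling moved in both directions. Of 26 tested, 14 were higher and 5 lower (3 lower without untreated replicate 2), with 17 higher and 3 lower after scaling, and 9 and 2 without the block. Tlr2, the receptor for bacterial lipoproteins, went from 2.29 and 1.45 to 14.7 and 7.30 FPKM (2.44 ± 0.26, adjusted p = 7.2e-05), below its level of 27.5 and 18.6 FPKM at 60 min. That difference from 60 min was -1.12 (adjusted p = 0.0106), but -0.71 and no longer called after scaling (adjusted p = 0.139). Tlr4, the receptor for LPS, stood at 5.06 and 5.59 FPKM untreated, 1.36 and 0.959 FPKM at 60 min, then 2.53 and 2.77 FPKM at 180 min. Its fall against untreated was called with the block (-0.98 ± 0.26, adjusted p = 0.00954, but 0.0536 without the block, 0.397 after median-ratio scaling, 0.0625 without untreated replicate 2, 0.0506 without 180 min replicate 1 and 0.0584 without 180 min replicate 2). Tlr13, a receptor for bacterial ribosomal RNA, fell from 6.65 and 6.87 to 1.43 and 1.52 FPKM (-2.12 ± 0.21, adjusted p = 5.5e-05), and Ikbke, a kinase upstream of IRF3, rose from 2.40 and 3.40 to 10.2 and 13.3 FPKM (1.99 ± 0.21, adjusted p = 7.4e-05).

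Among secreted signals, 20 of 23 tested cytokine genes and 15 of 16 tested chemokine genes were higher. Their median changes were 4.0 and 4.91, beside -0.69 over all tested genes. In each list 1 gene was lower. The cytokine calls were 21 and 0 after scaling, 19 and 1 without the block, and the chemokine calls 15 and 1 after scaling, 15 and 1 without the block. Of the 31 cytokines and 21 chemokines listed, the others were not tested, and without the members that passed only through the 180 min libraries 15 of 18 and 13 of 14 were higher. Tnf, the gene of tumour necrosis factor, was already at 30.8 and 52.2 FPKM untreated, stood at 618 and 1025 FPKM at 60 min and at 586 and 775 FPKM at 180 min (4.07 ± 0.27, adjusted p = 8.0e-06). Tnf was thus high at both times, and the 180 min and 60 min libraries overlapped. Ccl4, a chemokine for monocytes and lymphocytes, climbed on from 169.6 and 208 FPKM at 60 min to 513 and 576 FPKM at 180 min, against 19.8 and 20.4 FPKM untreated (4.75 ± 0.23, adjusted p = 2.2e-06).

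Interleukin genes reached their levels at different times. Il12b, which encodes a subunit of interleukins that direct T cell responses, was at 0.019 and 0.016 FPKM untreated and 6.63 and 6.48 FPKM at 180 min (5.82 ± 0.32, adjusted p = 3.4e-06), and 3.71 and 8.68 FPKM at 60 min. Il10, the gene of an anti-inflammatory cytokine, rose less, from 1.59 and 1.96 to 3.69 and 7.25 FPKM (1.503 ± 0.27, adjusted p = 0.00156). Edn1, the gene of the vessel-constricting peptide endothelin 1, went from 0.212 and 0.292 FPKM untreated over 1.52 and 3.42 FPKM at 60 min to 64.8 and 91.9 FPKM (7.79 ± 0.25, adjusted p = 8.6e-07). Edn1 thus rose mostly after 60 min, by 5.02 between 60 and 180 min (adjusted p = 1.2e-05). Cxcl1, a chemokine for neutrophils, was not called different between those times, with 166 and 206 FPKM at 60 min, then 164 and 146.9 FPKM at 180 min, against 1.01 and 1.40 FPKM untreated. Osm, an interleukin 6 family cytokine, was at 2.23 and 0.592 FPKM untreated and 2.13 and 1.16 FPKM at 180 min, and was not called (adjusted p = 0.213, but called higher after median-ratio scaling at 0.0286).

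Receptors for cytokines and chemokines were divided, with 8 of 26 tested higher and 10 lower (12 higher and 9 lower after scaling, and 5 and 6 without the block). The median change of -0.25 turned to 0.49 after median-ratio scaling and was -0.46 after quantile normalization. Ccrl2, a receptor that binds the chemoattractant chemerin, rose from 1.89 and 0.538 to 39.7 and 30.6 FPKM (4.96 ± 0.39, adjusted p = 1.7e-05). Cxcr4, the chemokine receptor that retains cells in the marrow, fell in both replicates, from 16.1 and 2.42 to 1.07 and 0.184 FPKM (-3.47 ± 0.23, adjusted p = 8.2e-06, but 0.0919 without the block). Il6ra, the receptor subunit for interleukin 6, fell from 2.08 and 2.10 to 0.136 and 0.072 FPKM (-3.44 ± 0.24, adjusted p = 9.3e-06). Csf2ra was at 13.4 and 13.9 FPKM untreated and 10.6 and 11.9 FPKM at 180 min and was not called (adjusted p = 0.246).

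Most interferon signalling genes rose. Ifnb1, the gene of interferon beta, was listed at 0 in both untreated libraries, stood at 0.959 and 2.80 FPKM at 60 min and at 0.850 and 2.12 FPKM at 180 min, and was called higher (adjusted p = 8.1e-05); no fold is given against a group listed at 0. Of 19 tested genes of interferon, interferon regulatory factors, STATs and Jak kinases, 11 were higher and 2 lower (14 higher and 2 lower after scaling, and 9 and 2 without the block). Irf7, which amplifies interferon production, was at 4.67 and 3.37 FPKM untreated, 2.96 and 1.58 FPKM at 60 min, then 48.0 and 47.5 FPKM at 180 min (3.56 ± 0.25, adjusted p = 9.2e-06). In Irf7 the 2 libraries of 180 min lay above all 6 others. Irf1 rose earlier, to 45.1 and 57.2 FPKM at 60 min, then 61.9 and 84.7 FPKM at 180 min from 4.86 and 4.49 FPKM (3.93 ± 0.31, adjusted p = 1.7e-05), and Jak2 changed by 4.20 ± 0.20. Irf5, expressed constitutively in macrophages, was at 13.03 and 7.81 FPKM untreated and 10.7 and 12.01 FPKM at 180 min (adjusted p = 0.604).

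The antiviral genes downstream of interferon rose almost without exception. Of 38 tested antiviral effectors 37 were higher, 0 were lower and Ifi27l2a was not called (5.99 and 9.51 FPKM untreated and 10.6 and 10.8 FPKM at 180 min, adjusted p = 0.0989, but called higher after median-ratio scaling at 0.00212). The calls were 38 and 0 after scaling, 36 and 0 without the block, and 33 of the 34 that passed the limit without the 180 min libraries were higher. The median change was 2.48, and 37 of the 38 were also higher than at 60 min. Rsad2, whose product viperin blocks viral replication, went from 1.93 and 3.79 FPKM untreated over 4.25 and 8.05 FPKM at 60 min to 139.7 and 379 FPKM at 180 min (6.36 ± 0.24, adjusted p = 9.3e-07). Mx1, a gene of the dynamin-like Mx family, stood at 1.22 and 1.66, 1.24 and 0.934 and 81.7 and 139 FPKM at the same times (6.13 ± 0.28, adjusted p = 1.6e-06). The RefSeq entry listed for Mx1 is a noncoding one. Ifit1, which binds viral RNA lacking a proper cap, went from 1.10 and 1.71 to 62.4 and 110.3 FPKM (5.82 ± 0.21, adjusted p = 9.2e-07), and Cmpk2 changed by 5.68 ± 0.32. At 60 min Rsad2 and Ifit1 were already called higher than untreated, by 1.08 (adjusted p = 0.0074) and 1.14 (adjusted p = 0.0032). Mx1 and Cmpk2 were not called at that time. At 180 min both replicates of all 4 genes stood far above every earlier library.

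**Figure D3:**
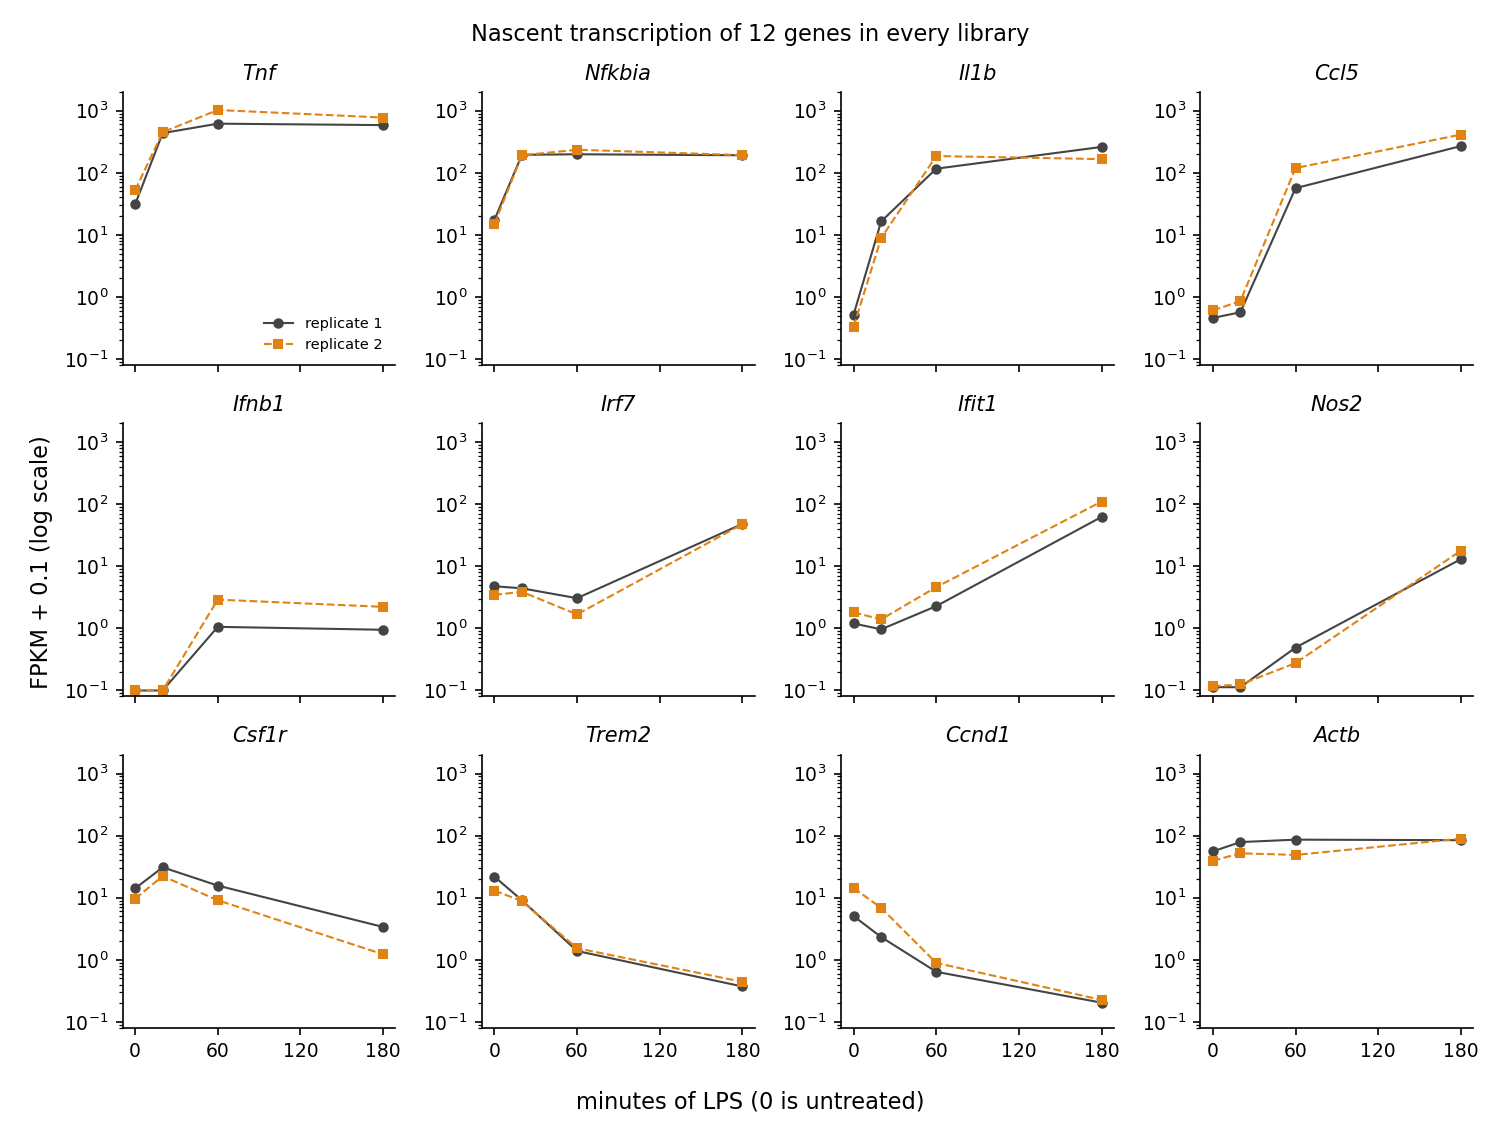
FPKM + 0.1 (y axis, log scale) of 12 genes in each of the 8 libraries against minutes of LPS (x axis), with circles for replicate 1 and squares for replicate 2. Tnf, Nfkbia and Il1b were high by 60 min, Irf7, Ifit1 and Nos2 rose mainly between 60 and 180 min, Csf1r, Trem2 and Ccnd1 fell, and Ifnb1 is drawn at the offset of 0.1 where it was listed at 0.

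Related interferon-inducible families moved the same way. All 8 tested interferon-inducible GTPases were higher, with a median change of 4.99; the other 9 of 17 listed were not tested. Of the 8, 6 passed the limit without the 180 min libraries, and the calls were 8 and 0 after scaling, 8 and 0 without the block. Gbp5, which helps to assemble the inflammasome, went from 0.086 and 0.236 to 45.9 and 89.3 FPKM (8.002 ± 0.26, adjusted p = 8.6e-07), and Gbp2 from 0.281 and 0.421 to 28.0 and 40.4 FPKM (6.24 ± 0.27, adjusted p = 1.2e-06). Of 12 tested genes of Isg15 conjugation and interferon-inducible Parp proteins 12 were higher, among them Isg15, the ubiquitin-like modifier (3.95 and 1.33 to 65.8 and 42.7 FPKM, 4.46 ± 0.28, adjusted p = 5.5e-06), and Usp18, which removes it (1.12 and 1.09 to 15.4 and 19.3 FPKM, 3.84 ± 0.23, adjusted p = 4.9e-06). Each of these 12 was also called higher than untreated after scaling and without the block. All 12 were called higher than at 60 min in the fit with the block. Of 15 tested cytosolic nucleic acid sensors 13 were higher and 2 lower (1 lower without untreated replicate 1), with 13 higher and 1 lower after scaling, and 10 and 1 without the block; 11 of the 13 that passed without the 180 min libraries were higher. The sensor of long double-stranded RNA, Ifih1, went from 1.03 and 1.37 to 20.9 and 39.8 FPKM (4.49 ± 0.23, adjusted p = 2.4e-06). The DNA sensor family gene Ifi205 went from 0.017 and 0.039 to 8.14 and 11.3 FPKM (6.25 ± 0.24, adjusted p = 9.3e-07). Ifi205 passed the limit only through the 180 min libraries and was bound to be high there.

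Most genes of antigen presentation on class I molecules rose as well, with 14 of 17 tested genes higher and 2 lower (1 lower without any 1 of 6 libraries), and 15 higher and 0 lower after scaling, and 8 and 1 without the block. Tap1, a subunit of the transporter that brings peptides to class I molecules, was at 2.47 and 1.77 FPKM untreated, 3.60 and 1.04 FPKM at 60 min, then 17.4 and 16.9 FPKM at 180 min (2.98 ± 0.38, adjusted p = 2.3e-04). Nlrc5, the transactivator of class I genes, went from 1.22 and 1.63 to 8.63 and 12.5 FPKM (2.79 ± 0.20, adjusted p = 1.2e-05). Of 7 tested class II genes 3 were higher and 1 lower, but 0 were called in either direction without the block, and without 180 min replicate 1 these were 0 and 0. H2-Ab1, a class II chain, stood at 0.349 and 0.194 FPKM untreated and 2.67 and 0.548 FPKM at 180 min (1.88 ± 0.42, adjusted p = 0.00455, but 0.104 without the block and 0.0696 without 180 min replicate 1). Its 180 min libraries lay above the untreated ones but differed widely from each other.

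Motif matches in the 250 bases before the gene start were counted for the 5437 tested genes with 1 RefSeq promoter. The interferon-stimulated response element was found in 2.85% of these, beside 2.98% of all 32851 RefSeq promoters. It was found in 7.75% of 748 higher genes, in 1.85% of 2806 lower genes and in 2.39% of 1883 genes not called. Among the higher genes it was found in 9.42% of the 552 whose mean was highest at 180 min and in 2.25% of the 178 whose mean was highest at 60 min. The kappaB site was found in 3.90% of all RefSeq promoters and 4.41% of tested genes, in 8.56% of the higher and 3.71% of the lower genes. Here the order of the times was the other way round, with 25 of the 178 genes highest at 60 min and 35 of the 552 highest at 180 min. The median content of G and C was 61.8% in the promoters of the genes highest at 60 min and 58.2% in those highest at 180 min. Its part in these shares was not tested. These shares are descriptions, without a test.

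**Figure D4:**
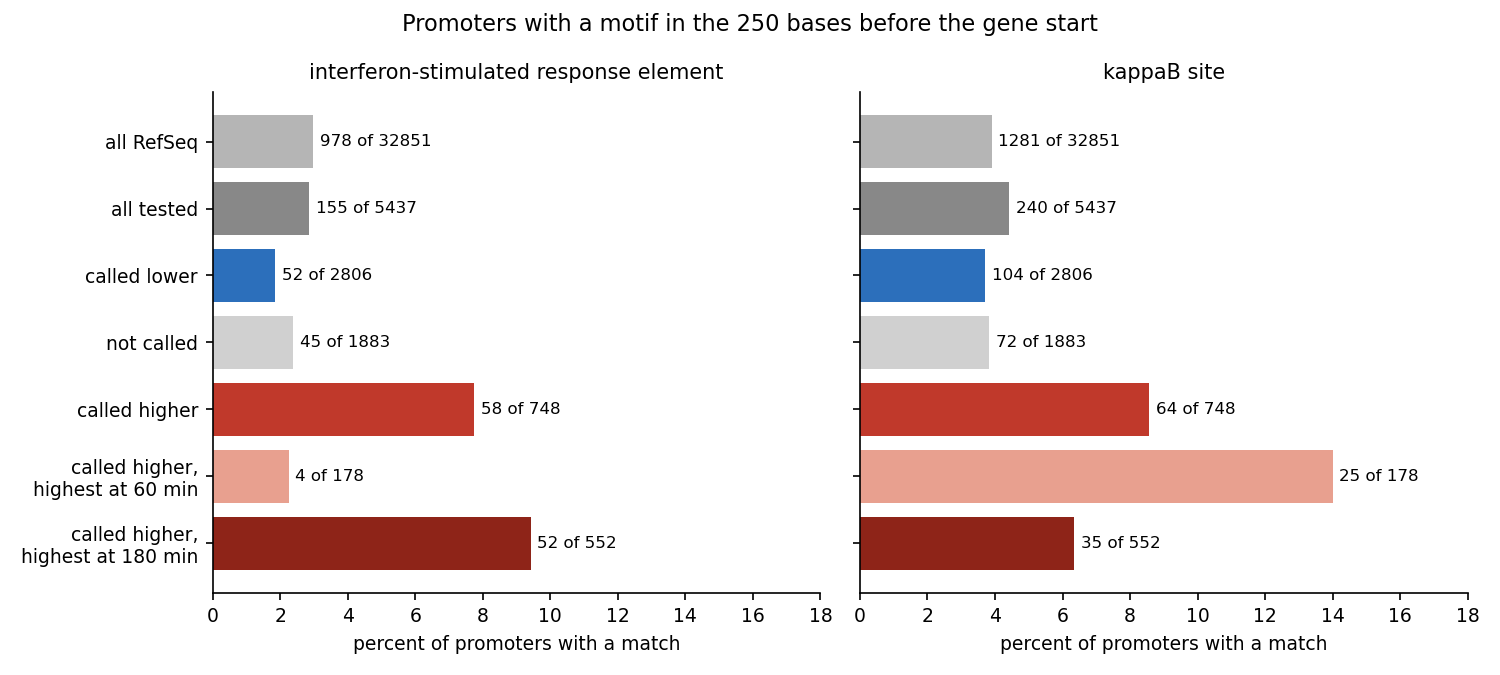
Percent of promoters with a match to the interferon-stimulated response element (left) and the kappaB site (right) in the 250 bases before the gene start, by class of gene, with the number of promoters beside each bar. The response element was found in 9.42% of higher genes with the highest mean at 180 min against 2.25% of those with the highest mean at 60 min, and the kappaB site in 35 of 552 against 25 of 178.

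By list, 6 of 6 promoters of interferon-inducible GTPases and 10 of 26 of antiviral effectors held the response element, as Ifit1, Rsad2 and Gbp5 show in the stretches printed above. It was found in 1 of 7 promoters of the Isg15 and Parp list and 2 of 8 of the nucleic acid sensors. The kappaB site was found in 7 of 15 promoters of the NF-kB list and 5 of 10 of the chemokines, as in Nfkbia and Cxcl10. It was also found in 5 of 26 promoters of antiviral effectors, 1 of 6 of the GTPases and 3 of 14 of the cytokines. The response element was found in 1 of 14 promoters of the cytokines and 1 of 10 of the chemokines. For comparison, 0 of 17 promoters of cell cycle genes held either motif, and 1 of 14 of lysosomal genes held each. Other motifs differed less. The AP-1 site TGANTCA was found in 4.21% of tested genes and 7.22% of higher genes, and the TATA box TATAAA in 6.35% and 10.2%. The cAMP response element TGACGTCA was found in 3.20% and 2.94%. The 5 motifs shared bases with each other in 0 of the 5437 promoters.

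Effector genes of activated macrophages rose strongly, with 20 of 25 tested inflammatory enzymes and secreted proteins higher, 1 lower (2 without 180 min replicate 1) and a median change of 3.98. Of these members 17 passed the limit on mean FPKM without the 180 min libraries, and 12 of them were higher. The calls were 23 and 1 after scaling, 18 and 1 without the block. Nos2, which makes nitric oxide, was at 0.013 and 0.017 FPKM untreated, 0.390 and 0.176 FPKM at 60 min, then 12.9 and 17.8 FPKM at 180 min (7.05 ± 0.33, adjusted p = 1.9e-06). It passed the limit only through the 180 min libraries and was bound to be high there. Ptgs2, the inducible cyclooxygenase of prostaglandin synthesis, went from 0.224 and 0.360 to 128 and 102.7 FPKM (8.21 ± 0.30, adjusted p = 9.2e-07), after 18.5 and 30.1 FPKM at 60 min. Irg1, which makes itaconate, was at 0.867 and 3.07 FPKM untreated and had reached 210.4 and 382 FPKM by 60 min, then 334 and 426 FPKM at 180 min (7.75 ± 0.33, adjusted p = 1.2e-06). Nos2 and Ptgs2 were also called higher at 180 than at 60 min, and Irg1 was not called between these times. Mmp12, a macrophage elastase, overlapped between the groups, at 13.5 and 23.6 FPKM untreated and 13.9 and 12.6 FPKM at 180 min (adjusted p = 0.297).

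Costimulatory and adhesion genes followed, with 10 of 14 tested higher and 1 lower (13 higher and 1 lower after scaling, and 9 and 1 without the block). Cd40, through which T cells activate macrophages, went from 0.665 and 0.429 to 67.1 and 63.1 FPKM (6.68 ± 0.24, adjusted p = 9.2e-07). Cd274, the gene of the checkpoint ligand PD-L1, was at 3.29 and 2.58 FPKM untreated, 4.67 and 5.86 FPKM at 60 min, then 39.2 and 58.9 FPKM at 180 min (3.999 ± 0.30, adjusted p = 1.3e-05). Icam1, an adhesion molecule for leukocytes, had its higher values at 60 min (107 and 127 FPKM) and stood at 65.9 and 51.9 FPKM at 180 min against 3.77 and 3.07 FPKM untreated. The difference of Icam1 between 180 and 60 min was -0.998 (adjusted p = 0.0157), but -0.58 after median-ratio scaling and no longer called (adjusted p = 0.219). Cd44 was not called (6.96 and 6.68 FPKM untreated and 17.1 and 7.28 FPKM at 180 min, adjusted p = 0.0795, but called higher after median-ratio scaling at 0.00874).

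Feedback regulators moved in both directions. Of 16 tested Socs genes and MAP kinase phosphatases 7 were higher and 5 lower (3 lower without untreated replicate 1), and 8 higher and 2 lower after scaling, and 5 and 3 without the block. Socs3, an inhibitor of STAT3 signalling, went from 0.518 and 0.366 to 102.7 and 78.8 FPKM (7.39 ± 0.26, adjusted p = 9.2e-07). Socs1, an inhibitor of interferon signalling, was at 3.35 and 1.64 FPKM untreated, 6.06 and 0.936 FPKM at 60 min, then 44.8 and 60.9 FPKM at 180 min (4.42 ± 0.55, adjusted p = 1.9e-04). Cish, listed at 0 in untreated replicate 2 and at 0.043 FPKM in replicate 1, reached 11.9 and 8.46 FPKM (adjusted p = 9.3e-07). The phosphatase gene Dusp2 changed by 4.53 ± 0.43, and Dusp4 was not called (6.40 and 4.79 FPKM untreated, 5.58 and 2.56 FPKM at 180 min, adjusted p = 0.0854).

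Regulators of mRNA decay also parted, with 6 of 17 higher and 5 lower (7 and 4 after scaling, 5 and 4 without the block). Zfp36l2, which speeds the decay of bound mRNAs, fell from 37.7 and 33.4 to 2.19 and 1.34 FPKM (-4.29 ± 0.24, adjusted p = 4.0e-06), and Zfp36l1 from 3.35 and 4.65 to 0.412 and 0.383 FPKM (-3.03 ± 0.24, adjusted p = 1.7e-05). Both were already low at 60 min, at 3.78 and 2.17 and 0.694 and 0.787 FPKM. Zc3h12c, a ribonuclease family gene, rose from 1.51 and 2.20 to 15.96 and 12.7 FPKM (2.90 ± 0.29, adjusted p = 5.4e-05). Genes of inflammasomes, survival and cell death had 12 of 26 higher and 4 lower (2 lower without untreated replicate 2), with 14 and 2 after scaling, 10 and 3 without the block. Of the 24 that passed the limit without the 180 min libraries 11 were higher. Nlrp3, the inflammasome sensor, rose from 1.32 and 2.08 to 26.0 and 24.2 FPKM (3.84 ± 0.28, adjusted p = 1.2e-05), while Nlrp1b, a sensor of another inflammasome, fell from 2.10 and 2.38 to 0.045 and 0.047 FPKM (-4.002 ± 0.26, adjusted p = 6.8e-06). The survival genes Bcl2a1b and Bcl2a1d were both called higher, but they are near-identical copies between which reads may be split, so their separate values are uncertain.

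Immediate early and stress factors, among the first genes to respond to LPS, moved in both directions by 180 min. Their summed level was 274 and 224 FPKM untreated, 870 and 687 FPKM at 20 min, and had come down to 351 and 288 FPKM by 180 min. Of 24 tested, 7 were higher (3 without untreated replicate 2) and 6 lower, with 12 higher and 3 lower after scaling, and 2 and 4 without the block. Fos, a subunit of AP-1, fell below its untreated level, from 34.7 and 46.1 FPKM untreated over 11.2 and 11.2 FPKM at 60 min to 4.46 and 2.91 FPKM (-3.44 ± 0.27, adjusted p = 1.6e-05). Klf10 fell from 7.08 and 13.7 to 1.24 and 1.20 FPKM (-2.92 ± 0.27, adjusted p = 4.1e-05). Ier3, a survival gene, rose from 10.1 and 5.46 to 52.9 and 30.6 FPKM (2.42 ± 0.22, adjusted p = 3.1e-05), and Atf3 was not called (34.9 and 16.5 FPKM untreated, 37.1 and 34.8 FPKM at 180 min, adjusted p = 0.159, but called higher after median-ratio scaling at 0.0421).

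The 15 largest falls, by the same limits as the rises, were those of Slc37a2, Trem2, Ccnd1, Dnmt3aos, Cd300lb, Cerk, Lrp1, Susd3, Tmem86a, Lyl1, Pdxk, Fblim1, Cnr2, Syngr1 and Tpcn1. All 15 were also called after median-ratio scaling and without the block. Cnr2 passed the limit on mean FPKM only through the untreated libraries and was bound to be high there. Slc37a2, a sugar phosphate exchanger of macrophages, went from 9.72 and 9.21 FPKM untreated to 0.166 and 0.052 FPKM at 180 min (-5.57 ± 0.27, adjusted p = 2.2e-06). Trem2, a lipid-sensing receptor of macrophages at chr17:48485726-48491601 (mm9), went from 21.8 and 12.96 to 0.272 and 0.342 FPKM (-5.38 ± 0.27, adjusted p = 2.4e-06), a 56.6-fold fall between the means. Lrp1, an endocytic receptor for lipoproteins and dying cells, went from 9.28 and 6.08 to 0.324 and 0.127 FPKM (-4.62 ± 0.24, adjusted p = 2.6e-06). In all of these the 180 min libraries lay far below the untreated ones. Dnmt3aos is an antisense gene, and Lyl1 overlaps Nfix on the opposite strand, so with strand handling not given their values are uncertain.

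Genes of macrophage identity and lineage moved in both directions, with 16 of 27 tested lower, 9 higher and a median change of -1.25 (-0.52 after scaling). The calls were 9 higher and 12 lower after scaling, and 3 and 10 without the block. The share lower was near that of all tested genes on the deposited scale only. After scaling and without the block it was above the matching 25.8% and 23.4%. Csf1r, the receptor for the growth factor that maintains macrophages, was at 14 and 9.54 FPKM untreated, 15.6 and 8.99 FPKM at 60 min, then 3.28 and 1.12 FPKM at 180 min (-2.52 ± 0.27, adjusted p = 8.1e-05). It had stood higher, at 30.8 and 22.1 FPKM, at 20 min, and the 60 min libraries were close to the untreated ones of the same number. Cd36, a scavenger receptor for oxidized lipoproteins, fell from 8.96 and 17.5 to 0.698 and 0.619 FPKM (-4.06 ± 0.33, adjusted p = 1.8e-05). Laptm5, a lysosomal membrane protein of blood cells, fell from 6.77 and 3.33 to 0.283 and 0.154 FPKM (-3.96 ± 0.21, adjusted p = 3.2e-06). Fcgr2b, the inhibitory receptor for IgG, went the other way, from 0.393 and 0.352 to 16.99 and 8.77 FPKM (4.705 ± 0.30, adjusted p = 6.2e-06). Maf, a lineage factor, was at 4.22 and 15.5 FPKM untreated and 3.83 and 14.1 FPKM at 180 min and was not called (adjusted p = 0.677).

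Surface receptors moved in both directions. Of 21 tested phagocytic, scavenger and lectin receptors 7 were higher (4 without 180 min replicate 1) and 12 lower, a share near that of all tested genes, with 8 and 9 after scaling, 4 and 10 without the block. The share lower was near that of all tested genes on the deposited scale only. After scaling and without the block it was above the matching 25.8% and 23.4%. Clec4e, a lectin that senses mycobacterial glycolipid, rose from 1.30 and 5.66 to 95.9 and 130.0 FPKM (5.30 ± 0.36, adjusted p = 8.1e-06). Cd300a, an inhibitory receptor, fell from 11.7 and 15.7 to 0.717 and 0.610 FPKM (-4.17 ± 0.24, adjusted p = 4.2e-06), as did Cd300lb, from 28.1 and 21.1 to 0.897 and 0.465 FPKM (-5.02 ± 0.23, adjusted p = 1.9e-06). Of 24 tested G protein-coupled receptors of macrophages 9 were higher and 11 lower, but 13 and 7 after scaling, 7 and 7 without the block. Fpr2, a receptor for formylated bacterial peptides, rose from 0.064 and 0.374 to 16.1 and 29.4 FPKM (6.29 ± 0.29, adjusted p = 1.9e-06). Adora2a, an adenosine receptor, rose from 0.115 and 0.031 to 11.8 and 8.46 FPKM (5.91 ± 0.22, adjusted p = 9.2e-07), and Hcar2, a receptor for niacin and ketone bodies, changed by 5.46 ± 0.29. Ptger4 was not called, with 3.01 and 2.41 FPKM untreated and 4.18 and 1.72 FPKM at 180 min (adjusted p = 0.997, but called higher after median-ratio scaling at 0.0486).

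Most lipid handling genes were lower on the deposited scale. Of 17 tested genes of the liver X receptors and lipid handling 13 were lower and 1 was higher, but after scaling 6 were lower and 2 higher, and without the block 7 and 1. Pparg, a nuclear receptor that drives fatty acid storage, fell from 3.25 and 4.25 to 0.208 and 0.138 FPKM (-3.82 ± 0.29, adjusted p = 1.4e-05). Fads1, a fatty acid desaturase, fell from 2.74 and 1.88 to 0.113 and 0.054 FPKM (-3.71 ± 0.23, adjusted p = 5.2e-06). Acsl1, which activates fatty acids, was the higher one, at 1.06 and 0.995 FPKM untreated and 11.7 and 6.78 FPKM at 180 min (2.999 ± 0.29, adjusted p = 4.5e-05). Cholesterol synthesis gave no stable direction: 2 of 19 tested were higher and 5 lower on the deposited scale, and 8 higher and 0 lower after scaling, with medians of -0.17 and 0.50. Without the block 0 were higher and 1 lower, and the number higher was 0 without either untreated library and 1 without any other library but 180 min replicate 2. The number of lower genes ranged from 1, without untreated replicate 2 or 180 min replicate 2, to 8, without 180 min replicate 1.

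Calls in central metabolism depended on the scaling and on single libraries. Of 21 tested genes of glycolysis and the hypoxia response 7 were higher and 5 lower, and 10 and 1 after scaling, 4 and 1 without the block; the higher count fell to 3 without untreated replicate 1 and 4 without replicate 2, and the lower count was 2 without untreated replicate 2 and 9 without 180 min replicate 1. Slc2a6, a hexose transporter family gene, rose from 3.33 and 1.25 to 40.2 and 25.4 FPKM (3.90 ± 0.29, adjusted p = 1.2e-05), and Pfkfb3, an activator of glycolysis, from 0.989 and 0.623 to 8.17 and 5.57 FPKM (2.95 ± 0.21, adjusted p = 1.1e-05). Of 17 tested genes listed for the tricarboxylic acid cycle 12 were lower and 0 higher, but 5 were lower and 2 higher after scaling. The share lower was near that of all tested genes after scaling (25.8%) and without the block (23.4%). The number lower was 5 without the block, 7 without untreated replicate 1 and 4 without untreated replicate 2. Mdh1 and Idh1 encode cytosolic forms of malate and isocitrate dehydrogenase. Mdh1 fell from 1.80 and 1.47 to 0.247 and 0.181 FPKM (-2.47 ± 0.31, adjusted p = 2.1e-04), and Idh1 from 6.003 and 5.02 to 1.82 and 1.48 FPKM (-1.68 ± 0.20, adjusted p = 1.6e-04). Both were already lower than untreated at 60 min, and neither was called different between 60 and 180 min. Mdh1 passed the limit on mean FPKM only through the untreated libraries and was bound to be high there. Among mitochondrial members picked by the same rule, Sdhb changed by -1.42 ± 0.25 (adjusted p = 0.0012). Idh3g changed by -1.33 ± 0.28 (adjusted p = 0.0033, but 0.113 without the block). Idh3b, which overlaps Nop56 on the opposite strand, was not called (-0.47 ± 0.25, adjusted p = 0.118).

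Lysosomal genes were lower in most cases, 18 of 24 on the deposited scale and 13 after scaling, with 2 (1 without either untreated library or 180 min replicate 2) and 5 higher and a median change of -1.66. Without the block 14 were lower and 1 was higher. Ctsd, the protease cathepsin D, fell from 39.7 and 15.2 FPKM untreated over 18.03 and 7.76 FPKM at 60 min to 3.79 and 1.23 FPKM (-3.44 ± 0.21, adjusted p = 4.9e-06). Tfeb, the factor that drives lysosomal genes, fell from 4.78 and 2.26 to 0.289 and 0.098 FPKM (-3.61 ± 0.21, adjusted p = 4.8e-06). Atp6v0d2, a subunit of the proton pump, fell from 4.14 and 2.60 to 0.343 and 0.052 FPKM (-3.70 ± 0.33, adjusted p = 3.2e-05).

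The cell cycle list had the lowest median change of all lists, -2.37, and -1.84 after scaling. Of 27 tested genes 21 were lower and 3 higher, with 20 lower and 5 higher after scaling, and 20 lower and 2 higher without the block. Ccnd1, the gene of cyclin D1, fell from 4.96 and 14.2 FPKM untreated over 0.541 and 0.791 FPKM at 60 min to 0.104 and 0.126 FPKM (-5.31 ± 0.36, adjusted p = 8.0e-06), an 83.5-fold fall between the means. E2f2 and E2f1, transcription factors of the S phase, fell from 2.22 and 2.16 to 0.071 and 0.016 FPKM and from 3.69 and 2.02 to 0.503 and 0.074 FPKM (-4.02 ± 0.25 and -3.13 ± 0.37). Ccnd2, cyclin D2, rose from 0.099 and 0.336 to 2.46 and 6.40 FPKM (3.79 ± 0.30, adjusted p = 1.6e-05), with an overlapping gene on the opposite strand. Ccnd2 passed the limit on mean FPKM only through the 180 min libraries and was bound to be high there. Cdkn1b, an inhibitor of cyclin-dependent kinases, was not called (6.88 and 5.77 FPKM untreated, 5.72 and 3.26 FPKM at 180 min, adjusted p = 0.101).

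**Figure D5:**
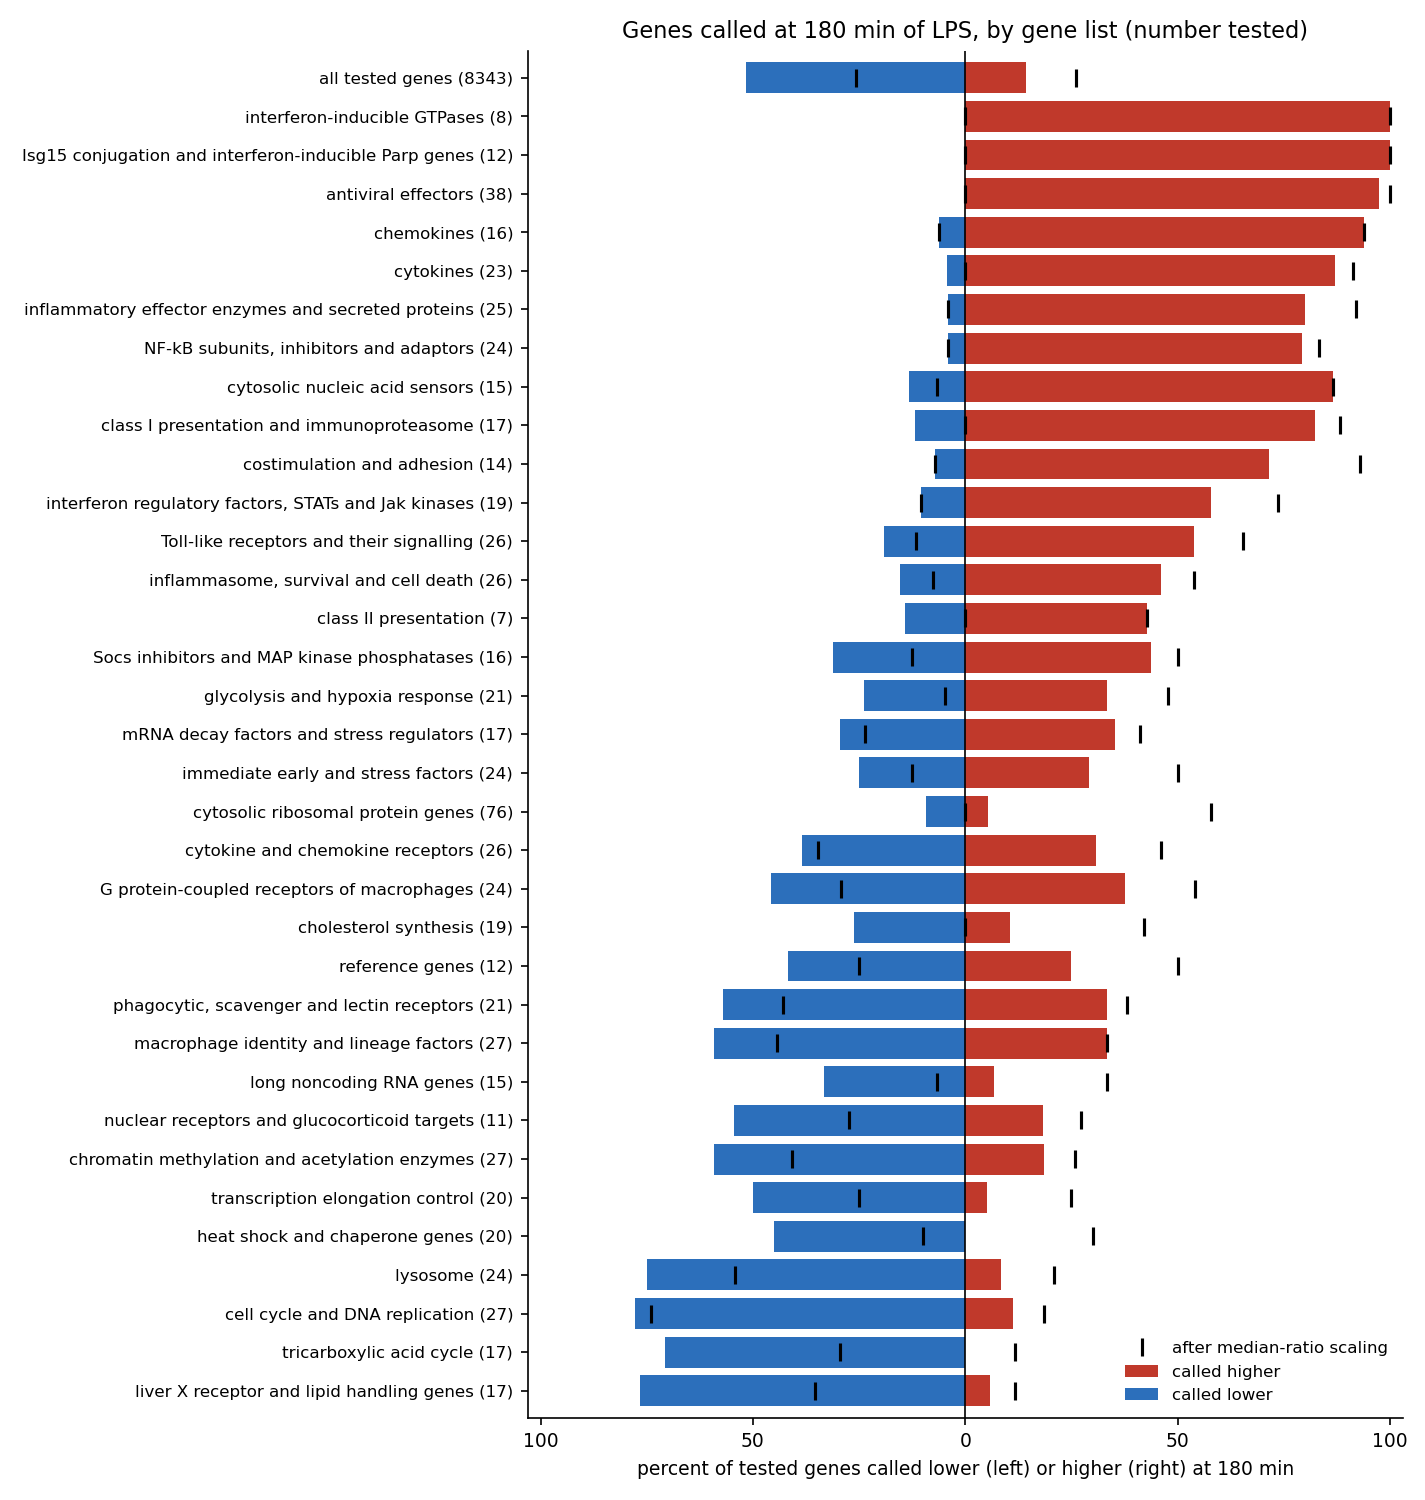
Percent of tested genes called lower (to the left) and higher (to the right) at 180 min in each gene list, with the number tested in brackets and all tested genes at the top; black ticks give the percentages after median-ratio scaling. The lists of cytokines, chemokines, antiviral effectors, interferon-inducible GTPases and Isg15 conjugation lie almost wholly to the right. The cell cycle and lysosome lists lie mostly to the left in both scalings, and the ribosomal protein genes shift from mostly not called to higher.

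Chromatin enzymes moved in both directions. Of 27 tested enzymes of chromatin methylation and acetylation 16 were lower, a share near that of all tested genes (10 without untreated replicate 2), and 5 higher, with 7 higher and 11 lower after scaling, and 5 and 12 without the block. The share lower was near that of all tested genes on the deposited scale only. After scaling and without the block it was above the matching 25.8% and 23.4%. Dnmt1, the maintenance DNA methyltransferase, fell from 1.99 and 1.55 to 0.172 and 0.102 FPKM (-2.99 ± 0.23, adjusted p = 1.7e-05), and Tet3, which oxidizes methylated cytosine, from 4.39 and 3.25 to 0.587 and 0.386 FPKM (-2.75 ± 0.20, adjusted p = 1.3e-05). Setdb2, a histone methyltransferase family gene, was at 0.755 and 1.18 FPKM untreated, 0.386 and 0.684 FPKM at 60 min, then 5.51 and 10.1 FPKM at 180 min (2.85 ± 0.21, adjusted p = 1.1e-05). Setdb2 thus stood apart from Dnmt1 and Tet3, above all earlier libraries. Of 20 tested genes of transcription elongation control 1 was higher and 10 lower (6 lower without untreated replicate 2; 2 higher without either 180 min library), with 5 and 5 after scaling, 1 and 6 without the block. That share of lower genes was near that of all tested genes, and the median change of -0.61 turned to 0.07 after scaling. Polr2a, the largest subunit of RNA polymerase II, fell from 3.33 and 4.36 to 0.932 and 0.754 FPKM (-2.06 ± 0.28, adjusted p = 3.1e-04), and Aff1, a scaffold of elongation complexes, rose from 2.63 and 1.97 to 7.42 and 10.6 FPKM (1.92 ± 0.29, adjusted p = 5.0e-04).

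Nuclear receptors and glucocorticoid targets had 6 of 11 lower and 2 higher (1 higher without any 1 of 5 libraries), and 3 and 3 after scaling and 2 and 0 without the block. Tsc22d3, a classical glucocorticoid target, fell from 5.84 and 2.80 to 0.684 and 0.481 FPKM (-2.62 ± 0.23, adjusted p = 2.7e-05). Nr3c1, the glucocorticoid receptor, was at 1.89 and 3.41 FPKM untreated and 5.17 and 6.55 FPKM at 180 min (1.16 ± 0.22, adjusted p = 0.00205, but 0.106 without the block). Heat shock and chaperone genes had 9 of 20 lower (4 without untreated replicate 2, 5 without 180 min replicate 2) and 0 higher, but 2 lower and 6 higher after scaling and 4 and 0 without the block. Their median change of -0.49 turned to 0.19 after scaling. Hsph1 fell from 1.06 and 0.751 to 0.330 and 0.110 FPKM (-1.72 ± 0.27, adjusted p = 6.2e-04), and Hspa5, the chaperone of the endoplasmic reticulum, was not called (17.04 and 15.1 FPKM untreated, 22.5 and 15.7 FPKM at 180 min, adjusted p = 0.361, but called higher after median-ratio scaling at 0.0146).

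Genes often used as references did not hold level as a group. Of 12 tested 3 were higher and 5 lower, and after scaling 6 and 3; the higher count was 0 without untreated replicate 1, 1 without untreated replicate 2 or 180 min replicate 2, and 0 without the block. The number lower was 3 without the block, untreated replicate 2 or 180 min replicate 2. Actb, the gene of beta actin, was at 55.6 and 39.2 FPKM untreated and 84.3 and 89.3 FPKM at 180 min (0.89 ± 0.27, adjusted p = 0.0164, but 0.143 without the block, 0.0746 without untreated replicate 1, 0.107 without untreated replicate 2 and 0.115 without 180 min replicate 2), and its change was -0.22 after quantile normalization. Tubb5, a tubulin gene, fell from 16.6 and 18.996 to 5.41 and 4.39 FPKM (-1.85 ± 0.23, adjusted p = 1.9e-04). Of 76 tested ribosomal protein genes 4 were higher and 7 lower with a median change of 0.01, but 44 were higher and 0 lower after median-ratio scaling, and 2 and 0 without the block. The number lower was 0 without untreated replicate 2 or 180 min replicate 2 and 17 without 180 min replicate 1, and ribosomal protein genes share sequence with many pseudogenes. Of 15 tested long noncoding RNA genes 5 were lower (1 without untreated replicate 2, 2 without untreated replicate 1 or 180 min replicate 2) and 1 was higher. After scaling the balance turned, with 5 higher and 1 lower and a median change of 0.24 in place of -0.50, and without the block 1 was higher and 1 lower.

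Set against 60 min, 872 genes were higher at 180 min (10.5%) and 2247 lower (26.9%). Without the block these were 340 and 327, and with libraries left out in turn 486 to 1000 and 722 to 3483, the lowest both without 60 min replicate 2. Of the genes higher than untreated, 612 were also above 60 min, 95 were below it and 477 were not called against it. Their mean was highest at 180 min in 866, at 60 min in 290 and at 20 min in 28. Of the genes lower than untreated, 1672 were also below 60 min, 44 were above it and 2586 were not called against it. Rsad2 and Mx1 were among the genes above 60 min, and Tnf and Nfkbia among those not called between the times. Tlr2 and Icam1 were among those below 60 min on the deposited scale but were not called after scaling.

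The gene that followed a higher gene was higher in a larger share of pairs than the gene that followed any other. In 7859 pairs of neighbouring tested genes that did not overlap, the next gene was higher in 29.8% of pairs after a higher gene and in 11.7% after any other. Within 50 kb the share after a higher gene was 37.0% (543 pairs) and beyond it 23.2% (594 pairs), given here without a test. The longest run held 9 genes on chromosome 1 at chr1:175350735-175973067 (mm9), from Aim2 over Mnda and Ifi205 to Olfr433, which includes the DNA sensor family. Runs of 6 held the Oas genes, which make the activator of the antiviral nuclease RNase L, on chromosome 5 and the Ifit genes on chromosome 19. Close copies within these families can share reads, so their neighbours' calls are not independent of each other.

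Longer genes were higher somewhat more often. The share of higher genes was 11.2% among the 2086 shortest genes (0.22 to 6.78 kb), and 375 of the 2086 longest genes (37.1 to 716 kb) were higher. The share of lower genes was 55.3% and 46.1% in these sets. The median length was 21.0 kb among higher genes, 14.5 kb among lower genes and 16.2 kb over all tested genes. Length and the part of the gene that polymerases had reached were not separated, since the deposited values cover the whole gene span.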

How the data were processed

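GRO-seq libraries of bone marrow-derived macrophages were taken at 0, 20, 60 and 180 min of LPS, with 2 replicates a time. The authors deposited 1 FPKM value per gene and library, and the values were used as deposited. CASAVA 1.7, Bowtie2 2.0.5, HOMER 4.6 and 4.7 and the mm9 genome are named in the submitters' processing notes, without roles or order; the sources used here do not give strand handling or the read total behind FPKM. Lengths are gene spans: the file's length equals end minus start in 99.32% of genes. Of 337 genes with more than 1 copy in the file, 7 were tested. Another 8 columns, of another treatment, were not used here.

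Read depths were recovered from the steps of low FPKM values in genes of at most 1500 bases, where 100% of values came out whole within 0.1 read and 20% would by chance. Per the labels each library had over 50 M reads, which is above the recovered depth of 6 of the 8.

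Values were tested as log2(FPKM + 0.1) with limma 3.58.1 (R 4.3.3) over all 8 libraries, with time and replicate number as terms, a trended variance, two-sided moderated tests and Benjamini-Hochberg adjustment over the tested genes at 0.05. A fold change on this scale understates the change of low genes. Replicate number was kept as a block because the comparison pairs replicates by number; the difference between replicates correlated between times at 0.595 to 0.882 across 8343 genes. Other steps used Python 3.11.15, pandas 2.3.3 and numpy 2.4.6, and the fit was tested on simulated data. Promoter sequences are those of RefSeq on GRCm38.p6, matched by symbol for 6760 tested genes, and mm9 positions are those of the file.

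Genes were named by rule: the 15 largest changes in each direction averaging 2 FPKM or more in 1 group and groups that did not overlap, and per list the 4 largest called changes and 1 gene not called, besides genes fixed by name. Some genes that this rule picks are not reported here. The members, lists and tests were chosen with earlier results of these data known. Alternatives were no block, other scalings, pseudocounts, filters, voom weights and leaving out each library; the fit with both scaling and no block was chosen after seeing the data.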

Additional observations from a re-analysis of the deposited data

Results flagged for a closer look

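In 76 genes the difference from untreated was negative at 60 min and positive at 180 min, each called by limma with Benjamini-Hochberg adjustment, and in 53 genes it was positive at 60 min and negative at 180 min. After median-ratio scaling the counts were 59 and 34, and 30 and 16 genes were called so on both scales. The genes named next were chosen after their values were seen, and in each the difference between 180 and 60 min was itself called.

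Fcgr1, the high-affinity receptor for IgG, was at 5.81 and 6.23 FPKM untreated, 0.415 and 0.439 FPKM at 60 min, then 8.47 and 17.9 FPKM at 180 min. Samhd1, which depletes nucleotides needed by retroviruses, was at 4.75 and 5.87, then 1.24 and 1.36, then 16.7 and 37.6 FPKM. Itpkb, an inositol phosphate kinase, moved the other way, from 4.57 and 2.81 FPKM over 9.56 and 8.59 to 0.671 and 0.518 FPKM. Myc, a growth-promoting transcription factor, was at 5.61 and 4.32 FPKM untreated, 12.7 and 8.21 FPKM at 60 min, then 2.38 and 1.28 FPKM at 180 min. The 2 libraries of each of these 3 times did not overlap with those of the others in these 4 genes.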

How the results depend on the processing

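The number of higher genes at 180 min against untreated was 1184, and that of lower genes 4302. Without the replicate block they were 745 and 1951. Median-ratio scaling gave 2176 and 2149, and quantile normalization gave 1990 and 2228. The number of lower genes was 6591 with no filter, 2482 with a filter of 1 FPKM, and 1052 with median-ratio scaling and no block together. With each library left out in turn the counts ranged from 892 to 1181 and from 2416 (without untreated replicate 2) to 4771.

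Against 60 min the numbers were 872 higher and 2247 lower. Without the block they were 340 and 327, and with scaling and no block 424 and 241. The lower genes numbered 1316 with no filter, 1120 with median-ratio scaling and 1064 with quantile normalization. With libraries left out the counts ranged from 486 to 1000 and from 722 to 3483. Leaving out 60 min replicate 2 gave 486 higher and 722 lower, and leaving out 180 min replicate 2 gave 533 and 952. The lower genes were 1099 when 60 min replicate 1 was left out and 3483 when 180 min replicate 1 was. The cause of these shifts was not tested.

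Of 154 named genes called, 121 kept call and direction under every alternative listed, 139 with each library left out, and 22 lost the call without the block. After median-ratio scaling, with or without the block, the change turned positive in Nfkbid (0.44), Unc93b1 (0.31), Csf2ra (0.46), Ctss (0.063), H2-DMa (0.57), Mmp12 (0.31), Mcl1 (0.51), Dusp4 (0.19), Maf (0.60), Nr1h2 (0.55), Aldoa (0.52), Idh3b (0.24), Cdkn1b (0.19), Vdr (0.59), Ehmt2 (0.047) and Rpl41 (0.32). After quantile normalization it turned in Atf3 (-0.20), Irf5 (-0.21), Rgs1 (-1.11), Clec12a (-0.26), Nr1h2 (0.16), Ebp (0.16), Hspa5 (-0.31), Snhg8 (-0.44) and Actb (-0.22). Ptger4 was -0.0031 with a pseudocount of 0.01. With libraries left out in turn Vdr ranged from -0.29 to 0.068, Clec12a from -0.38 to 0.51, Ptger4 from -0.54 to 0.54, Irf5 from -0.29 to 0.62 and Mmp12 from -1.06 to 0.20. Depth limits low genes: 1 read in a gene of median length was worth 0.0014 FPKM in 180 min replicate 1 and 0.0077 FPKM in replicate 2.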
